A study of Mus musculus with 8 samples.

Results

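The genes described here are the inhibitor of DNA binding (Id) genes Id1, Id2 and Id3 and the E protein genes Tcf3, Tcf4 and Tcf12. They were taken by name, 6 of the 45232 gene names in the deposited table, and all 6 passed the filter on low values that left 13376 genes to test. E proteins are basic helix-loop-helix transcription factors that bind the DNA motif CANNTG, called an E-box, as pairs. Id proteins carry the helix-loop-helix but not the basic region, so that an Id and E protein pair does not bind DNA. In lymphocytes the balance between both families is known for its part in lineage choice and in the maintenance of regulatory T cells (Tregs).

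RNA was measured in T cells sorted as CD4+ CD25+, a gate rich in Tregs, from visceral adipose tissue and from spleen of C57BL/6 mice. Wild-type (WT) mice were compared with Id2-deficient mice (KO, labelled Id2 CKO), and the design asks how Id2 deficiency and tissue relate to expression in these cells. Each of the 4 groups (WT adipose, KO adipose, WT spleen, KO spleen) held 2 libraries, numbered 2 and 3 and called experiments here after the column names, from at least 500 sorted cells each. The labels used here give neither the cells in which Id2 was deleted nor the deleted part of the gene, nor the age of the mice. Nor do they tie a library to a mouse, so that p-values measure the spread among these libraries only, part of which may be technical. Levels are in TPM, a share of each library's transcripts corrected for gene length, which keeps no read depth.

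All 11 genes of a T cell core list were above 1 TPM in every library. Their summed level was lowest in KO adipose 3, at 3560 TPM against 7057 to 9821 TPM elsewhere. The 2 KO libraries of experiment 2 stood apart in Foxp3, the defining transcription factor of Tregs: it was at 7.40 TPM in adipose tissue and 8.27 TPM in spleen there, against 93.5 to 266.1 TPM in the other 6 libraries. The summed Treg list (8 genes with Foxp3) did not stand apart there, at 1830 and 1728 TPM against 1126 to 2377 TPM. Of its other genes only Il2rb was also lowest in both, at 68.6 and 51.9 TPM against 98.7 to 308.9 TPM. For many results below, the values without the 2 KO libraries of experiment 2 are also given. KO adipose 3 stood apart in markers of other cells. Its summed macrophage and monocyte list (12 genes in the table) was at 11190 TPM against 15.1 to 616 TPM elsewhere, and its adipocyte list (6 genes) at 14330 TPM against 1.03 to 2110 TPM. The summed fibroblast and mesothelium list (9 genes) was at 730 and 3591 TPM in KO adipose and at 0.120 to 4.80 TPM in the other 6 libraries. Genes above 0 numbered 13184 in KO adipose 2, the fewest, 20684 in KO adipose 3, the most, and 14717 to 16822 in the other 6 libraries. In bulk RNA, fewer cells of a type and less RNA per cell cannot be told apart, and neither can the tissue and the way cells were freed from it.

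The 250 bases before the start of Id2 and of Id3 are shown because these are the Id genes with the highest levels, in opposite order in the tissues in WT. They come from RefSeq tables on build GRCm38.p6, which is not the build of the expression table, at chr12:25096093-25096342 on the minus strand for Id2 and chr4:136143572-136143821 on the plus strand for Id3. Each is written 5′ to 3′ on the strand of the gene, and capitals mark every CANNTG, a motif that reads alike on both strands.
Id2: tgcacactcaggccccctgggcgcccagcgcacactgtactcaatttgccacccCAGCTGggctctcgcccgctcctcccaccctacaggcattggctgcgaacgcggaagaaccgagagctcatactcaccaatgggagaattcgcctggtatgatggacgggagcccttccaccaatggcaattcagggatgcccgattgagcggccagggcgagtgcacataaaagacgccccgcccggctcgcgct
Id3: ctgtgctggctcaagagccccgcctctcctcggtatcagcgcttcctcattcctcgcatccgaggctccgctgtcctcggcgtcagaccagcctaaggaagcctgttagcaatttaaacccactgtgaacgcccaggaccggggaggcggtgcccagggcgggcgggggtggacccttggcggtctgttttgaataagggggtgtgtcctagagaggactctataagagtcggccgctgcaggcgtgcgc
The Id2 window held 1 such motif, CAGCTG, 196 bases before the start, and the Id3 window held none. CANNTG occurred in 66.2% of 32851 windows of this length and CAGCTG, which is among its forms, in 13%. The window before Tcf3 (chr10:80433636-80433885, minus strand) held 1 CANNTG, 54 bases before the start, and of 3 windows listed for Tcf12 2 held 1 each. These are matches of letters in short windows, and no binding was measured.

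Id2, the targeted gene, had the highest level of the 6 genes in all 4 adipose libraries. It stood at 2249 and 3679 TPM in WT adipose and at 1499 and 1298 TPM in KO adipose. The WT spleen libraries held 274.3 and 345.9 TPM and the KO spleen libraries 72.1 and 264.8 TPM. Both KO libraries were below both WT libraries in each tissue, but Id2 transcript was still abundant in all KO libraries. The table holds 1 value per gene, so whether a deleted part is missing from the transcript cannot be seen. Within an experiment, the KO level was 66.7% and 35.3% of the WT level in adipose tissue (experiments 2 and 3) and 26.3% and 76.6% in spleen. Both KO adipose libraries exceeded both WT spleen libraries in Id2.

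By limma on log2(TPM + 1), with Benjamini-Hochberg adjusted p over the 13376 genes (threshold 0.05), the KO minus WT difference of Id2 in adipose tissue was -1.04 on the log2 scale (SE 0.57, 95% interval -2.36 to 0.27, adjusted p = 0.751). In spleen the difference was -1.15 (SE 0.57, interval -2.46 to 0.17, adjusted p = 1). Averaged over tissues the difference was -1.10 (SE 0.40, interval -2.02 to -0.17, unadjusted p = 0.0261, adjusted p = 0.917). None of these passed after adjustment. The genotype difference did not differ detectably between tissues (interaction 0.11, SE 0.81, interval -1.75 to 1.96, adjusted p = 1). An order of KO below WT without overlap was common among all genes, at 27.5% in adipose tissue and 13.9% in spleen.

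Id2 differed far more between tissues than between genotypes. The group order was WT adipose (2964 ± 1011 TPM, SD, n = 2), KO adipose (1399 ± 142), WT spleen (310 ± 50.7) and KO spleen (168.5 ± 136). No 2 neighbours in this order overlapped, and each gap between neighbouring means was larger than the larger SD of the pair. For WT and KO spleen this was narrow, at 141.6 against 136.2 TPM, with single values of 274.3 and 264.8 TPM next to each other. The share of all genes with such an order was not counted. Ranked within each library, Id2 was the 48th and 26th highest gene of WT adipose and the 91st and 87th of KO adipose. It ranked 527 and 362 in WT spleen and 1570 and 487 in KO spleen. Averaged over genotypes, Id2 was 9.66-fold higher in adipose tissue on the log2(TPM + 1) scale (log2 difference 3.27, SE 0.40, interval 2.34 to 4.2, adjusted p = 0.00815 by limma). All 4 adipose libraries were above all 4 spleen libraries, an order that 11.6% of tested genes shared. The difference was near equal within WT (3.22, SE 0.57, adjusted p = 0.0835) and within KO (3.32, SE 0.57, adjusted p = 0.0424). Within KO it was 2.29 when both KO libraries of experiment 2 were left out. Without both KO libraries of experiment 2 the averaged difference was 2.75, with an adjusted p of 0.0705 over the same genes and 0.0126 with the filter reapplied to the 6 libraries left. Without WT spleen 2 the adjusted p was 0.0625. The pass within KO was lost without any 1 of 7 of the 8 libraries (adjusted p 0.0635 to 0.218), KO spleen 3 being the exception.

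**Figure D1:**
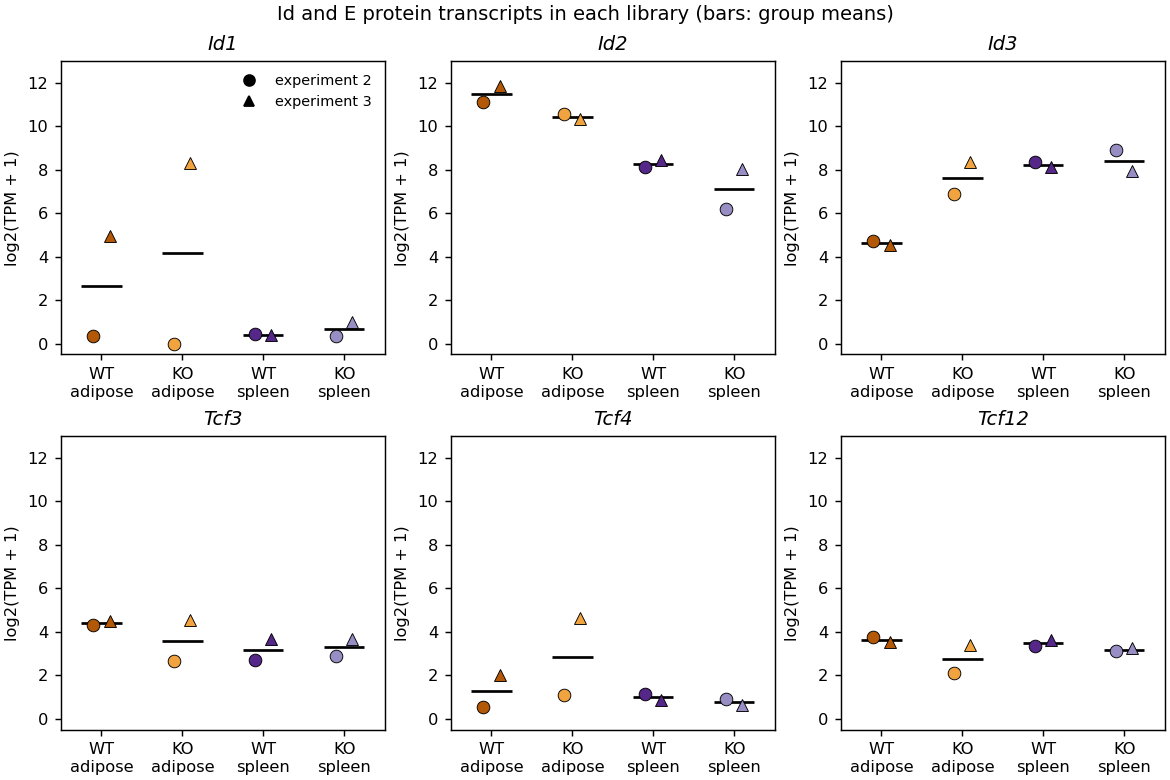
Level of each gene in the 8 libraries as log2(TPM + 1), by group, with circles for experiment 2, triangles for experiment 3 and bars for group means. Id2 is high in all 4 adipose libraries, Id3 is lowest in the 2 WT adipose libraries (25.1 and 22.3 TPM), and Id1 and Tcf4 are high in the adipose libraries of experiment 3.

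Id3, which like Id2 binds E proteins and is known as a target of T cell receptor signals, had the opposite order in WT cells. It was at 25.1 and 22.3 TPM in WT adipose and at 321.8 and 276.0 TPM in WT spleen. In KO adipose it was at 115.9 and 323.4 TPM, and in KO spleen at 478.1 and 244.8 TPM. WT adipose stood below all 6 other libraries, whose values overlapped between groups. The share of all genes with this order was not counted. From the top the order was KO spleen (361.5 ± 165 TPM, SD, n = 2), WT spleen (298.9 ± 32.4), KO adipose (219.7 ± 147) and WT adipose (23.7 ± 1.98). Neighbours among the first 3 groups did not differ beyond their spread. By rank, Id3 was the 4669th and 5014th gene of WT adipose, the 1314th and 424th of KO adipose, the 448th and 453rd of WT spleen and the 338th and 530th of KO spleen.

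Id3 was 2.98 higher on the log2 scale in KO than in WT adipose (SE 0.52, interval 1.80 to 4.17, unadjusted p = 0.000374), which did not pass the adjustment over all genes (adjusted p = 0.0835 by limma). Both KO adipose libraries were above both WT adipose libraries, as for 7.66% of tested genes. Within an experiment the KO level was 462% and 1450% of the WT level. Without KO adipose 2 the difference was 3.72, and likewise without both KO libraries of experiment 2. In these fits KO adipose 3, the library rich in markers of other cells, was the only KO adipose library. Without KO adipose 3 the difference was 2.25, with KO adipose 2 as the only KO adipose library. In spleen the difference was 0.20 (SE 0.52, interval -0.99 to 1.38, adjusted p = 1), with KO at 149% and 88.7% of WT within an experiment. The interaction was 2.78 (SE 0.73, interval 1.11 to 4.46, unadjusted p = 0.00487) and did not pass (adjusted p = 0.678). The high macrophage, adipocyte and fibroblast lists of KO adipose 3 stand beside the higher of the 2 KO adipose values of Id3, and their part in the result was not tested. In KO adipose 2 the macrophage list was at 92.5 TPM (24.1 to 616 TPM in the WT libraries). The endothelial list (8 genes) was at 13.3 TPM there (15.9 to 134 TPM in WT) and the fibroblast list at 730 TPM. The erythroid list (4 genes in the table) also moved with genotype in adipose tissue, at 37.0 and 2668 TPM in WT and 24600 and 41280 TPM in KO. The WT spleen libraries held 10740 and 26950 TPM of it and the KO spleen libraries 785 and 63200 TPM. In the same order Id3 was at 321.8 and 276.0 TPM in WT spleen and 478.1 and 244.8 TPM in KO spleen. The part of the erythroid list in the adipose result was not tested.

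Between tissues, the adipose minus spleen difference of Id3 in WT was -3.60 on the log2 scale (SE 0.52, interval -4.79 to -2.42, adjusted p = 0.0506). Both WT adipose libraries were below both WT spleen libraries, as for 15.1% of tested genes. In KO the difference was -0.82 (SE 0.52, interval -2.00 to 0.37, adjusted p = 0.565). The summed B cell list (6 genes) also split the tissues. It was at 431.8 and 80.6 TPM in WT spleen and 380.9 and 81.3 TPM in KO spleen. The adipose libraries held 46.6 and 27.8 TPM in WT and 56.1 and 27.2 TPM in KO. The part of the B cell list in the Id3 level was not tested. Averaged over genotypes Id3 was lower in adipose tissue by 2.21 on the log2 scale (SE 0.37, interval -3.05 to -1.37, adjusted p = 0.0239 by limma), although the KO libraries of the 2 tissues overlapped. Without both KO libraries of experiment 2 the difference was -1.60, with an adjusted p of 0.0705 over the same genes and 0.0251 with the filter reapplied. The pass was lost without WT adipose 3, WT spleen 2, WT spleen 3 or KO spleen 2, each left out alone (adjusted p 0.0924 to 0.121).

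**Figure D2:**
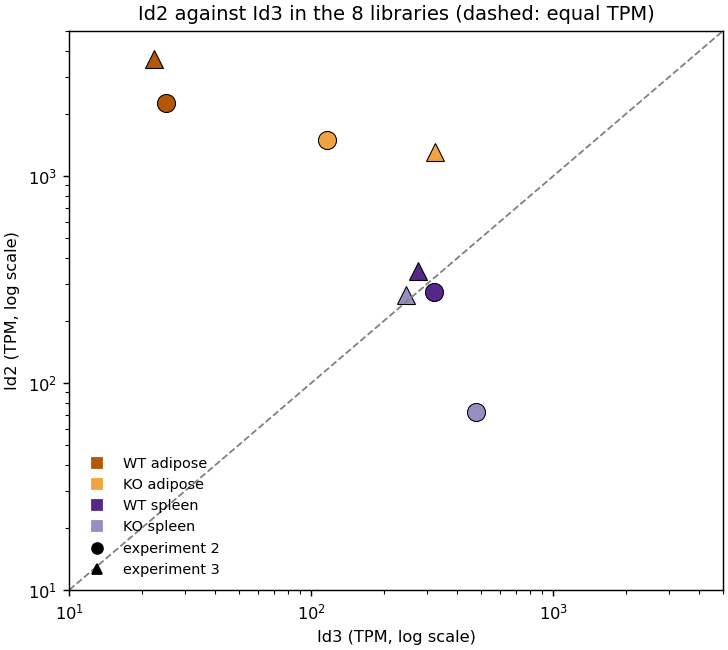
Id2 against Id3 in TPM, both on log axes, 1 point per library, coloured by group, with circles for experiment 2, triangles for experiment 3 and a dashed line at equal levels. All 4 adipose libraries lie above the line, the 2 WT adipose libraries farthest from it, and the spleen libraries lie on both sides.

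Set against each other within a library, Id2 exceeded Id3 by 89.7 and 165 times in WT adipose and by 12.9 and 4.01 times in KO adipose. In spleen the ratio was 0.853 and 1.25 in WT and 0.151 and 1.08 in KO. All 4 adipose ratios were above all 4 spleen ratios, 45.8-fold on the geometric mean. The exact 2-sided permutation test over 4 against 4 libraries gave p = 0.0286, the smallest it allows, and 0.114 after adjustment over 8 such tests. A measure cannot reach this smallest p by both tissue and genotype, so no adjusted p of these tests could be under 0.05. KO against WT, the ratio was 0.152-fold (exact p = 0.286, adjusted 0.549). Of the summed Id1, Id2 and Id3 transcripts, Id2 made up 98.9% and 98.6% in WT adipose, 92.8% and 67.1% in KO adipose, 46.0% and 55.6% in WT spleen, and 13.1% and 51.9% in KO spleen. These shares and ratios are unaffected by any rescaling of a whole library.

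Id1, the third Id gene, was near 0 in 6 of 8 libraries. It was at 0.292 and 30.2 TPM in WT adipose and at 0 and 312.8 TPM in KO adipose. The WT spleen libraries held 0.343 and 0.325 TPM and the KO spleen libraries 0.262 and 1.02 TPM. Only the adipose libraries of experiment 3 exceeded 1.02 TPM, and in both tissues the genotypes overlapped. The genotype difference in adipose tissue was 1.48 with an SE of 2.40 (interval -4.03 to 6.99, adjusted p = 0.893), and leaving out single libraries moved it from -2.67 to 5.63. Between tissues the averaged difference was 2.86 (SE 1.70, adjusted p = 0.347).

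The same 2 libraries held the most RNA of endothelial markers. The summed level of 8 endothelial genes was 134 TPM in WT adipose 3 and 1024 TPM in KO adipose 3, against 7.22 to 39.4 TPM in the other 6. Cdh5 and Cldn5, which encode junction proteins of endothelial cells, were at 0 in those 6 libraries. They stood at 3.998 and 56.2 TPM in WT adipose 3 and at 65.5 and 351 TPM in KO adipose 3. Emcn, Egfl7 and Tie1 were likewise highest in both adipose libraries of experiment 3, but Kdr, Pecam1 and Vwf were not. WT adipose 3 had less Kdr than KO adipose 2 (5.46 against 6.23 TPM). It had less Pecam1 than WT adipose 2 (34.6 against 38.2 TPM) and less Vwf than KO spleen 3 (0.0145 against 0.0847 TPM). The adipocyte list was also highest in both adipose libraries of experiment 3, at 2110 and 14330 TPM. The part of these cells in the Id1 level was not tested.

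**Figure D3:**
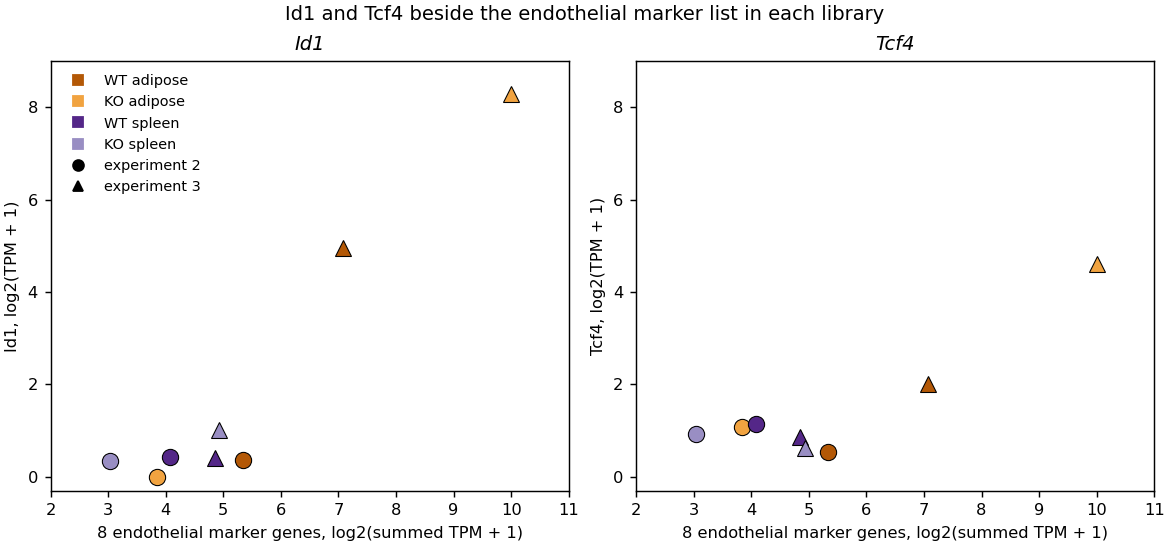
Id1 (left) and Tcf4 (right) as log2(TPM + 1) against the summed level of 8 endothelial marker genes as log2(summed TPM + 1), 1 point per library, coloured by group, with circles for experiment 2 and triangles for experiment 3. The WT and KO adipose libraries of experiment 3, at 134 and 1024 TPM of endothelial markers, hold the highest values of both genes.

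Of the E protein genes, Tcf3 and Tcf12 were expressed at a moderate level in every library and Tcf4 at about 1 TPM in most. Tcf3 was at 18.9 and 21.8 TPM in WT adipose, 5.32 and 22.0 TPM in KO adipose, 5.42 and 11.7 TPM in WT spleen and 6.42 and 11.7 TPM in KO spleen. Both WT adipose libraries were above both WT spleen libraries, an order that 37.8% of tested genes shared, and the genotypes overlapped in each tissue. The group means ran from 20.4 ± 2.07 TPM in WT adipose over 13.7 ± 11.8 in KO adipose and 9.06 ± 3.73 in KO spleen to 8.56 ± 4.44 in WT spleen (SD, n = 2). Every pair of neighbours in this order overlapped. The low values, 5.32 to 6.42 TPM, all belonged to experiment 2, and KO adipose 2 also had the fewest genes above 0.

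Tcf12, which encodes the E protein HEB, did not change detectably in any contrast. It was at 12.6 and 10.5 TPM in WT adipose, 3.36 and 9.51 TPM in KO adipose, 9.07 and 11.3 TPM in WT spleen and 7.55 and 8.59 TPM in KO spleen. In both tissues the KO libraries were below the WT libraries, as for 27.5% of tested genes in adipose tissue and 13.9% in spleen. The differences were -0.88 in adipose tissue (SE 0.55, interval -2.14 to 0.38, adjusted p = 0.758) and -0.29 in spleen (SE 0.55, interval -1.56 to 0.97, adjusted p = 1). The median over all tested genes was -0.27 in adipose tissue and -0.12 in spleen. Without both KO libraries of experiment 2 the Tcf12 difference in adipose tissue was -0.25. From the top the group order was WT adipose, WT spleen, KO spleen and KO adipose. Only the WT and KO spleen neighbours did not overlap. Between tissues the averaged difference was -0.13 with an interval of -1.02 to 0.77.

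Tcf4, an E protein gene best known from plasmacytoid dendritic cells, was at 0.456 and 3.06 TPM in WT adipose and at 1.11 and 23.5 TPM in KO adipose. The WT spleen libraries held 1.21 and 0.820 TPM and the KO spleen libraries 0.892 and 0.551 TPM. Like Id1 it was highest in the adipose libraries of experiment 3, beside the endothelial values above. In KO adipose 3 Tcf4 made up 42.7% of E protein transcripts, against 1.43% to 11.4% in the other 7 libraries. The summed dendritic cell list was at 18.3 TPM in that library, at 4.43 to 13.3 TPM in the other adipose libraries and at no more than 2.37 TPM in spleen. Its genes did not move together. Among adipose libraries KO adipose 3 had the highest Siglech (6.95 TPM), Zbtb46 (6.64 TPM) and Clec9a (1.41 TPM). Its Xcr1 was the lowest, at 2.97 TPM against 3.99 to 9.81 TPM. Flt3 was not highest there, and Itgax was at 0 in all adipose libraries. The part of other cells in the Tcf4 level was not tested. Its genotype difference in adipose tissue was 1.57 (SE 1.07, adjusted p = 0.776) and -0.20 without KO adipose 3.

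Summed over the 3 Id genes, transcripts came to 2274 and 3731 TPM in WT adipose, 1615 and 1934 TPM in KO adipose, 596 and 622 TPM in WT spleen and 550.5 and 511 TPM in KO spleen. The adipose libraries were all above the spleen libraries, 3.99-fold on the geometric mean (exact permutation p = 0.0286, the smallest possible, adjusted 0.114, which could not be under 0.05). The summed E protein genes came to 31.9 and 35.4 TPM in WT adipose, 9.79 and 55.0 TPM in KO adipose, 15.7 and 23.8 TPM in WT spleen and 14.9 and 20.8 TPM in KO spleen. This sum overlapped between tissues (exact permutation p = 0.343) and between genotypes (p = 0.571). Id transcripts outnumbered E protein transcripts in every library, by 71.2 and 105 times in WT adipose, 165 and 35.2 times in KO adipose, 38.0 and 26.2 times in WT spleen and 37.0 and 24.5 times in KO spleen. The KO adipose libraries held both the highest and the lowest of the 4 adipose ratios. By tissue it was 2.64-fold higher in adipose tissue (exact permutation p = 0.0857, adjusted 0.229), and by genotype 0.917-fold (p = 0.857). Transcript ratios say nothing of protein amounts.

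Read against all genes, few of the 6 passed in any contrast. In KO against WT adipose none did, beside 0.284% of tested genes (38 genes). In KO against WT spleen and averaged over tissues limma called no gene at all (0%), with 64 and 503 genes at an unadjusted p under 0.05. Between tissues none of the 6 passed within WT (0.164% of genes), 1 (Id2) passed within KO (1.08%) and 2 (Id2 and Id3) passed averaged over genotypes (3.06%, 312 genes higher and 97 lower in adipose tissue). In the interaction none passed (0.0299%). With the experiment number as a block, which the shared deviation of same-numbered libraries allows, the members called were unchanged in each of the 7 contrasts. The genes called rose from 409 to 885 in the averaged tissue contrast, from 22 to 78 within WT and from 144 to 236 within KO, and fell from 4 to 0 in the interaction. The median log2 difference of all genes was 0.24 for adipose tissue against spleen, and -0.05 after quantile normalization. In the same order the Id2 difference was 3.27 and 3.27 and the Id3 difference -2.21 and -2.44. After rescaling by a trimmed mean of ratios between libraries (TMM) the median was -0.045. The Id2 difference was then 2.92 and the Id3 difference -2.56.

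**Figure D4:**
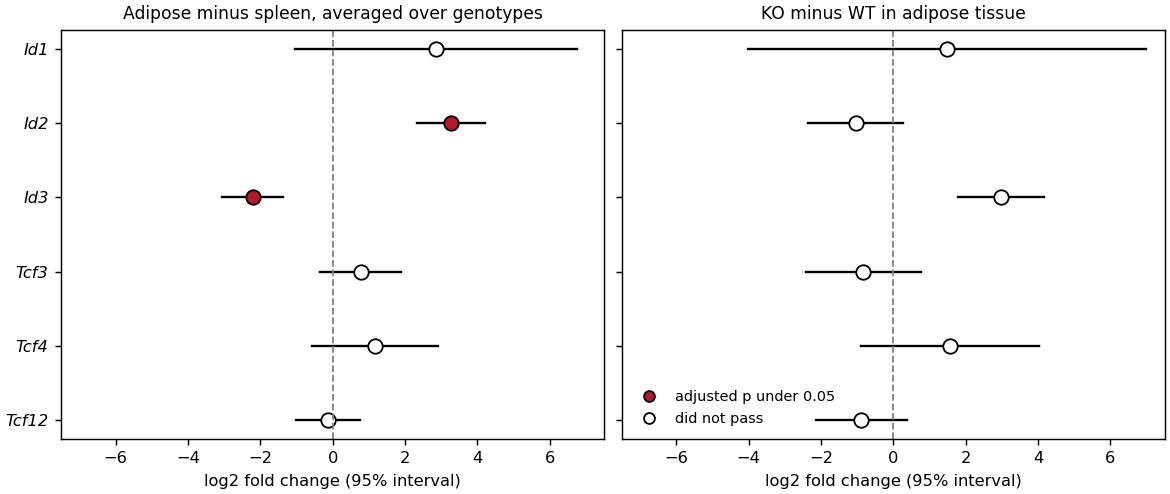
Log2 fold change of each gene with its 95% interval for adipose tissue against spleen averaged over genotypes (left) and KO against WT in adipose tissue (right), filled where the adjusted p was under 0.05. On the left Id2 (3.27) and Id3 (-2.21) are filled, and on the right no gene is.

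The other genes of the network were read from 4 lists. Of other helix-loop-helix factors 15 of 21 were tested, of TGF-beta and BMP signalling genes with receptor-signal inducers of Id genes 21 of 25, of E protein co-factors 11 of 12, and of genes that E proteins are known or reported to regulate in lymphocytes 26 of 30. No gene of any list passed in a genotype contrast, in the interaction, or between tissues within 1 genotype. In the averaged tissue contrast 1, 2, 0 and 2 members passed, all higher in adipose tissue. The list medians in that contrast were -0.29, 0.48, 0.09 and 0.08, beside 0.24 over all genes tested. Without both KO libraries of experiment 2 all 5 passes were lost over the same genes. With the filter reapplied to the 6 libraries left, Bhlhe40 (adjusted p = 0.0391), Egr1 (0.0223) and Cdkn1a (0.0203) passed, Acvr2a (0.0767) and Gata3 (0.0898) did not, and Hes1 passed in addition. The 5 passes were also lost without WT adipose 3, KO adipose 3, WT spleen 2 or KO spleen 2, each left out alone (adjusted p 0.0537 to 0.194).

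Bhlhe40, a helix-loop-helix repressor that binds E-boxes, was at 320.8 and 293.6 TPM in WT adipose and 89.5 and 93.0 TPM in KO adipose. The WT spleen libraries held 9.62 and 34.1 TPM and the KO spleen libraries 18.5 and 42.4 TPM. It rose by 2.83 on the log2 scale (SE 0.42, adjusted p = 0.0157 by limma, 0.112 without both KO libraries of experiment 2 over the same genes). In adipose tissue both KO libraries were below both WT libraries, as for 27.5% of tested genes. The difference of -1.74 (SE 0.59) did not pass (adjusted p = 0.548 by limma).

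Egr1, an immediate early factor known to induce Id3 after receptor signals, was at 126.5 and 423.4 TPM in WT adipose and 67.4 and 229.3 TPM in KO adipose, and at 18.0 to 22.0 TPM in all 4 spleen libraries. It was 3.06 higher on the log2 scale in adipose tissue (SE 0.48, adjusted p = 0.0204 by limma, 0.0813 without both KO libraries of experiment 2 over the same genes). Adipose tissue had the higher Egr1 in both genotypes, and Id3 was lower there in WT. Whether Egr1 and Id3 levels are linked in these cells was not tested. Acvr2a, which encodes an activin and BMP receptor, was at 8.11 to 15.6 TPM in adipose tissue and 0.862 to 3.29 TPM in spleen (2.13, SE 0.40, adjusted p = 0.0341 by limma, 0.125 without those libraries).

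Among reported E protein targets, Cdkn1a, the cell cycle inhibitor p21, was at 42.3 and 88.4 TPM in WT adipose, 8.83 and 40.6 TPM in KO adipose and 3.53 to 5.08 TPM in spleen (2.68, SE 0.50, adjusted p = 0.0338 by limma, 0.0705 without those libraries). Gata3, a transcription factor of adipose Tregs and type 2 helper cells, was at 155.7 and 426.4 TPM in WT adipose, 133.8 and 155.8 TPM in KO adipose and 34.2 to 76.8 TPM in spleen (1.81, SE 0.38, adjusted p = 0.0466 by limma). The Gata3 call was the least firm of the 5, at 0.0517 with a pseudocount of 0.1 and 0.175 without those libraries. With the experiment block 5 targets passed in place of 2, among them Bach2 and Socs1, and of the co-factors Lmo4 did. For KO against WT averaged over tissues 24 of 26 tested targets had a negative difference (median -0.38, beside -0.21 over all genes, of which 30.7% were positive). The count was not repeated without the KO libraries of experiment 2. It does not allow for the lower T cell core list of KO adipose 3.

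The genes most like each Id or E protein gene were taken as the 3 with the highest Pearson r of log2(TPM + 1) over the 8 libraries, among 8189 genes with a mean of at least 5 TPM. The 8 points share groups and experiments, so r is a description only. For Id2 they were Ccr2, a chemokine receptor (r = 0.996), Flot1 (0.993) and Vim, the intermediate filament vimentin (0.990). Ccr2 was at 293.8 and 782.7 TPM in WT adipose, 171.9 and 192.3 TPM in KO adipose, 7.40 and 12.6 TPM in WT spleen and 0.444 and 11.3 TPM in KO spleen. For Id3 they were Msrb2 (0.960), Bola1 (0.947) and Cd200, a surface glycoprotein (0.927). Cd200 was at 13.7 and 18.3 TPM in WT adipose, 55.5 and 177.6 TPM in KO adipose, 66.8 and 65.8 TPM in WT spleen and 108.1 and 70.7 TPM in KO spleen. The 2 WT adipose libraries had the lowest Cd200 and the lowest Id3 of the 8.

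For Id1 the 3 genes were Cracr2b (0.998), Tmem88 (0.997) and C1qtnf9 (0.997), which were at most 0.685 TPM in the 6 libraries outside adipose tissue of experiment 3. Tmem88 was at 15.1 TPM in WT adipose 3 and 203.0 TPM in KO adipose 3. For Tcf3 they were Actn4 (0.992), Baiap2 (0.991) and Hmgxb3 (0.988), and for Tcf12 Map3k4 (0.976), Ppfia1 (0.976) and Cnot1 (0.975). All 6 had their lowest or second lowest value in KO adipose 2, the library with the fewest genes above 0. Tcf4 had a mean under 5 TPM and was not compared in this way.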

How the data were processed

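The authors deposited 1 table of TPM for 8 libraries (each column sums to 1000000, from the values). Its build was mm9, per the submitters' processing notes. The sources used here name no aligner, counter or annotation. TPM keeps no depth, so no counting interval is given. An exact 0 is described as listed, and 10 of 10 housekeeping genes were above 0 in every library.

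The 13376 genes that reached 1 TPM in 2 or more libraries entered limma 3.58.1 in R 4.3.3 with a variance trend, on log2(TPM + 1), a scale that understates changes of low genes. All 8 libraries formed 1 fit of 4 groups with 4 residual degrees of freedom and 7 contrasts. Benjamini-Hochberg adjustment ran over every gene tested in a contrast, with a threshold of 0.05. Sums and ratios of TPM within a library were compared as log2 values by exact 2-sided permutation (70 arrangements). Adjusted over the 8 tests, none of them could pass the threshold. The fit was tested on simulated data. Where libraries were left out, the genes tested stayed the same unless stated.

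Named outside the 6 genes are list members past the threshold or with the 3 smallest p in a contrast, the 3 genes most like each, and cell markers. One gene of the lists is counted but not reported here. The genes and lists were chosen with earlier results of these data known. Differences between experiments 3 and 2 correlated across genes between groups (0.128 to 0.382 over 6 pairs of groups), so the numbers were taken to pair libraries, from this check and not from the labels. Alternatives were other pseudocounts, filters, scalings, weights, a block, no trend, fewer groups and left-out libraries.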

Additional observations from a re-analysis of the deposited data

How the results depend on the processing

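With 2 libraries a group, few calls were firm. For KO against WT in adipose tissue 1 gene (Id3) passed with quantile normalization. Without both KO libraries of experiment 2 the Id3 difference was 3.72, with KO adipose 3 as the only KO adipose library. For adipose tissue against spleen within WT, 1 (Id3) passed with a filter of 5 TPM, and 2 (Id2 and Id3) with library weights and, with the filter reapplied to the libraries left, without both KO libraries of experiment 2 or in a fit of WT alone (0 to 1 with single libraries left out). Within KO, 0 passed with a pseudocount of 0.1 or 5, no filter, no trend, library weights, the 2 tissues of KO alone, or without both KO libraries of experiment 2, and 0 to 1 with single libraries left out, where the 1 was Tcf4 without KO adipose 2 and Id2 without KO spleen 3. Averaged over genotypes, 0 passed with no filter and without both KO libraries of experiment 2, against 2 with the filter reapplied to the other 6 libraries, and 0 to 2 with single libraries left out. In the interaction 1 (Id3) passed without both KO libraries of experiment 2 with the filter reapplied. The replicate block left all counts of the 6 genes as they were, with Id2 at 3.27 and an adjusted p of 0.0078 averaged over genotypes. Genes called in that contrast were 21 with no filter and 0 without both KO libraries of experiment 2. Directions turned without both KO libraries of experiment 2 for Tcf3 in KO against WT adipose (0.11), Id3 in KO against WT spleen (-0.28), Id3 between tissues in KO (0.40), Tcf12 between tissues (0.15), the Id2 interaction (-0.93, and -0.032 with quantile normalization) and the E protein sum by genotype (0.41). The genotype difference of the Id to E protein ratio was 0.01 without Id1 and Tcf4. With single libraries left out the ranges crossed 0 for the genotype difference in adipose tissue of Id1 (-2.67 to 5.63), Tcf3 (-1.76 to 0.11) and Tcf4 (-0.20 to 3.33), and in spleen of Id3 (-0.28 to 0.68). They also crossed 0 for Tcf12 between tissues (-0.44 to 0.19), the Id2 interaction (-0.83 to 1.04) and, by genotype, the Id sum (-0.847 to 0.035), E protein sum (-0.816 to 0.014) and their ratio (-0.72 to 0.21). The causes were not tested.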
